A study of Mus musculus with 24 samples.

Results

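The 10 macrophage and complement genes described here were chosen by name out of 23420 entries of the count table of the mouse cochlea: C1qa, C1qb, C1qc, Aif1, Cx3cr1, Csf1r, Cd68, Emr1, Cd163 and Mrc1. Macrophages are resident phagocytes of the cochlea, found among the spiral ganglion neurons, in the spiral ligament and beside the vessels of the stria vascularis, and they take up debris and signal to the surrounding tissue after injury. They depend on the growth factors CSF1 and IL34, which act through the receptor encoded by Csf1r, and in the tissues of the mouse they are the main source of C1q. C1q is the recognition subunit of the classical complement pathway: it binds antibodies, dying cells or synapses and activates the proteases C1r and C1s, which cleave C4 and C2. The C1qa, C1qb and C1qc genes encode the chains of that one protein. Cx3cr1 encodes the receptor of fractalkine, Aif1 the actin-binding protein Iba1, Cd68 a lysosomal glycoprotein, Emr1 (Adgre1 in newer annotation) an adhesion receptor used as a marker of mouse macrophages, Cd163 the scavenger receptor of haemoglobin bound to haptoglobin, and Mrc1 the mannose receptor.

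RNA was sequenced from the whole cochlea of CBA/Sca mice aged 12 weeks, with adrenalectomy (ADX, which removes the source of corticosterone) or sham operation as one factor, and noise or sham exposure, at night or by day, as the others. The noise, at 100 dB SPL in a band between 6 and 12 kHz, lasted 1 h and started at Zeitgeber time (ZT) 15 in the night groups and at ZT3 in the day groups, and cochleae were taken 2 h after it. The sample labels give ZT23 and ZT11, which cannot be matched to those times, so the groups are called night and day only. The 8 groups had 3 libraries each, labelled a, b and c: night noise ADX, night sham-exposed ADX, night noise sham-operated, night sham-exposed sham-operated, day noise ADX, day sham-exposed ADX, day noise sham-operated and day sham-exposed sham-operated. All mice had been operated on, so none of these groups is untouched tissue. The labels do not say whether the libraries of a group came from separate animals, and p-values then measure only the spread between these libraries.

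Library totals ran from 18895000 to 36109000 counts, with a median of 25291000. Levels are given as CPM, counts scaled to a common library size after correction by the trimmed mean of M-values. The cochlear gene Coch was present at 2995 to 5650 CPM in every library. The tissue also held marrow: neutrophil and granule genes summed to at least 6679 CPM in every library, and the macrophage genes were read in this mixture. In bulk tissue, fewer macrophages and less RNA per macrophage cannot be told apart. Pituitary transcripts summed to 9890 CPM in night noise ADX a, and cerebellar transcripts stood highest in day sham-exposed sham-operated b, at 180.2 CPM, and night noise sham-operated b, at 157 CPM. Calls that changed without these 3 libraries are given both ways.

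The genes of the C1q chains lie side by side on the minus strand of chromosome 4 (GRCm38, GENCODE vM21), within 18675 bp. C1qb spans 136880129 to 136886187, C1qc spans 136889804 to 136893065 and C1qa spans 136895917 to 136898803. Aif1 lies on chromosome 17 from 35170991 to 35176068, and Emr1 on the same chromosome from 57358691 to 57483527. Cd163 is on chromosome 6 from 124304656 to 124330527, Mrc1 on chromosome 2 from 14229392 to 14332057, Cd68 on chromosome 11 from 69664213 to 69666153 and Cx3cr1 on chromosome 9 from 119901616 to 120069879. The counts are sums over exons, and the reading of a few could include neighbours: Csf1r overlaps Hmgxb3 on the opposite strand and Mir6983, Mrc1 overlaps Mir511, and the annotated span of Cx3cr1 contains other genes. The strand setting of the counting is not given in the sources used here, so reads of Csf1r and Hmgxb3 cannot be told apart.

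Promoters are shown for C1qb, C1qc and Aif1, which were higher after noise in the comparison described first, and for Cd163, which human macrophages are known to raise under glucocorticoids. Of the 10 genes, 7 were matched in the table of promoters from RefSeq (GRCm38.p6), which runs from 250 bases before to 50 bases after the start of transcription. Each sequence is written 5′ to 3′ on the strand of the gene. Capitals mark 3 motifs searched on both strands, which do not overlap each other here: the core of the binding site of PU.1, the lineage factor of macrophages (GAGGAA or its complement TTCCTC), the AP-1 site (TGAGTCA or TGACTCA) and the half-site of the glucocorticoid receptor (AGAACA or TGTTCT).
C1qb, chr4:136886151-136886450, minus strand: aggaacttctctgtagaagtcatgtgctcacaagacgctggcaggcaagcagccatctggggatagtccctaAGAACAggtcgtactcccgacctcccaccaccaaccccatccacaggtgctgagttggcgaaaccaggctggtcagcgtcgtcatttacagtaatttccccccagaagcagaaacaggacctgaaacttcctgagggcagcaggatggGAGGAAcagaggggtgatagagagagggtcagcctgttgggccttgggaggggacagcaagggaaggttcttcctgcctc
C1qc, chr4:136892865-136893164, minus strand: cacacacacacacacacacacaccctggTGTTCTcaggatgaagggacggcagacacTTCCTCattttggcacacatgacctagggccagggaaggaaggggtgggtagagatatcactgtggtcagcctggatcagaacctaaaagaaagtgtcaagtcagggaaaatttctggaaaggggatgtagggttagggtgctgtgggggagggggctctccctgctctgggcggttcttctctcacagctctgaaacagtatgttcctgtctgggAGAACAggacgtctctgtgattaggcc
Aif1, chr17:35176003-35176302, minus strand: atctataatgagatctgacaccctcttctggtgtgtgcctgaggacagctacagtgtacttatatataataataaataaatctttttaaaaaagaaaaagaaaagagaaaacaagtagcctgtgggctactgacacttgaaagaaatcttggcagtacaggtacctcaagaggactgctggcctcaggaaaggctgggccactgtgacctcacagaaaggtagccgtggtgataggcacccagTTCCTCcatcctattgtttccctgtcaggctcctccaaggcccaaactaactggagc
Cd163, chr6:124304401-124304700, plus strand: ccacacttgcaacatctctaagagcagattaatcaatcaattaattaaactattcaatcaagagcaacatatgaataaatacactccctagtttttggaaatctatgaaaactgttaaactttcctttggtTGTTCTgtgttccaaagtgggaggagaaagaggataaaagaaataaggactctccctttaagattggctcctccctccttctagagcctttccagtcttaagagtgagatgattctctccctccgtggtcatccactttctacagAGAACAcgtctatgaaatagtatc
The PU.1 core was present in 5 of the 7 matched promoters, against 28.3% of 32851 promoters of the same length. It began at position -30 from the start in C1qb, at -193 on the opposite strand in C1qc and at -7 on the opposite strand in Aif1, and it was also present in Cd68 and Mrc1. The glucocorticoid receptor half-site was in 3 of the 7, against 6233 of all 32851 promoters: once in C1qb, at -178, and at 2 places each in C1qc (-222 and 24) and Cd163 (-119 and 27). The AP-1 site was in 1 of the 7, Cd68, against 5.2% of all promoters. The promoter of Csf1r was not searched, and if it is among the 7 it counts as one without a motif. A match describes the letters in this window and is no measured binding site.

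All 10 genes passed the filter on low counts and were measured in every library, the lowest single count being 195, for Aif1. Per kilobase of exon, the C1q chains had the highest mean levels of the 10 over 24 libraries: 113.9 ± 17.7 CPM per kb for C1qa, 81.0 ± 14.4 for C1qb and 51.7 ± 8.63 for C1qc (SD, n = 24 each). Cd68 followed with 40.0 ± 4.93, Csf1r with 25.6 ± 2.37 and Mrc1 with 22.1 ± 3.27 CPM per kb. Cd163 and Emr1 were close to each other, at 11.7 ± 3.80 and 11.7 ± 1.58 CPM per kb, and Cx3cr1 and Aif1 were lowest, at 6.90 ± 0.897 and 6.86 ± 1.59 CPM per kb. The neighbours in that order from Cd163 to Emr1 and from Cx3cr1 to Aif1 differed by less than their spread. Csf1r was the steadiest, with a coefficient of variation of 9.24% and a range of 127 to 186 CPM. Cd163 varied most, with a coefficient of variation of 32.4%, and its highest level, 108 CPM in night noise sham-operated a, was 3.82 times its lowest, 28.4 CPM in night sham-exposed ADX a.

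**Figure D1:**
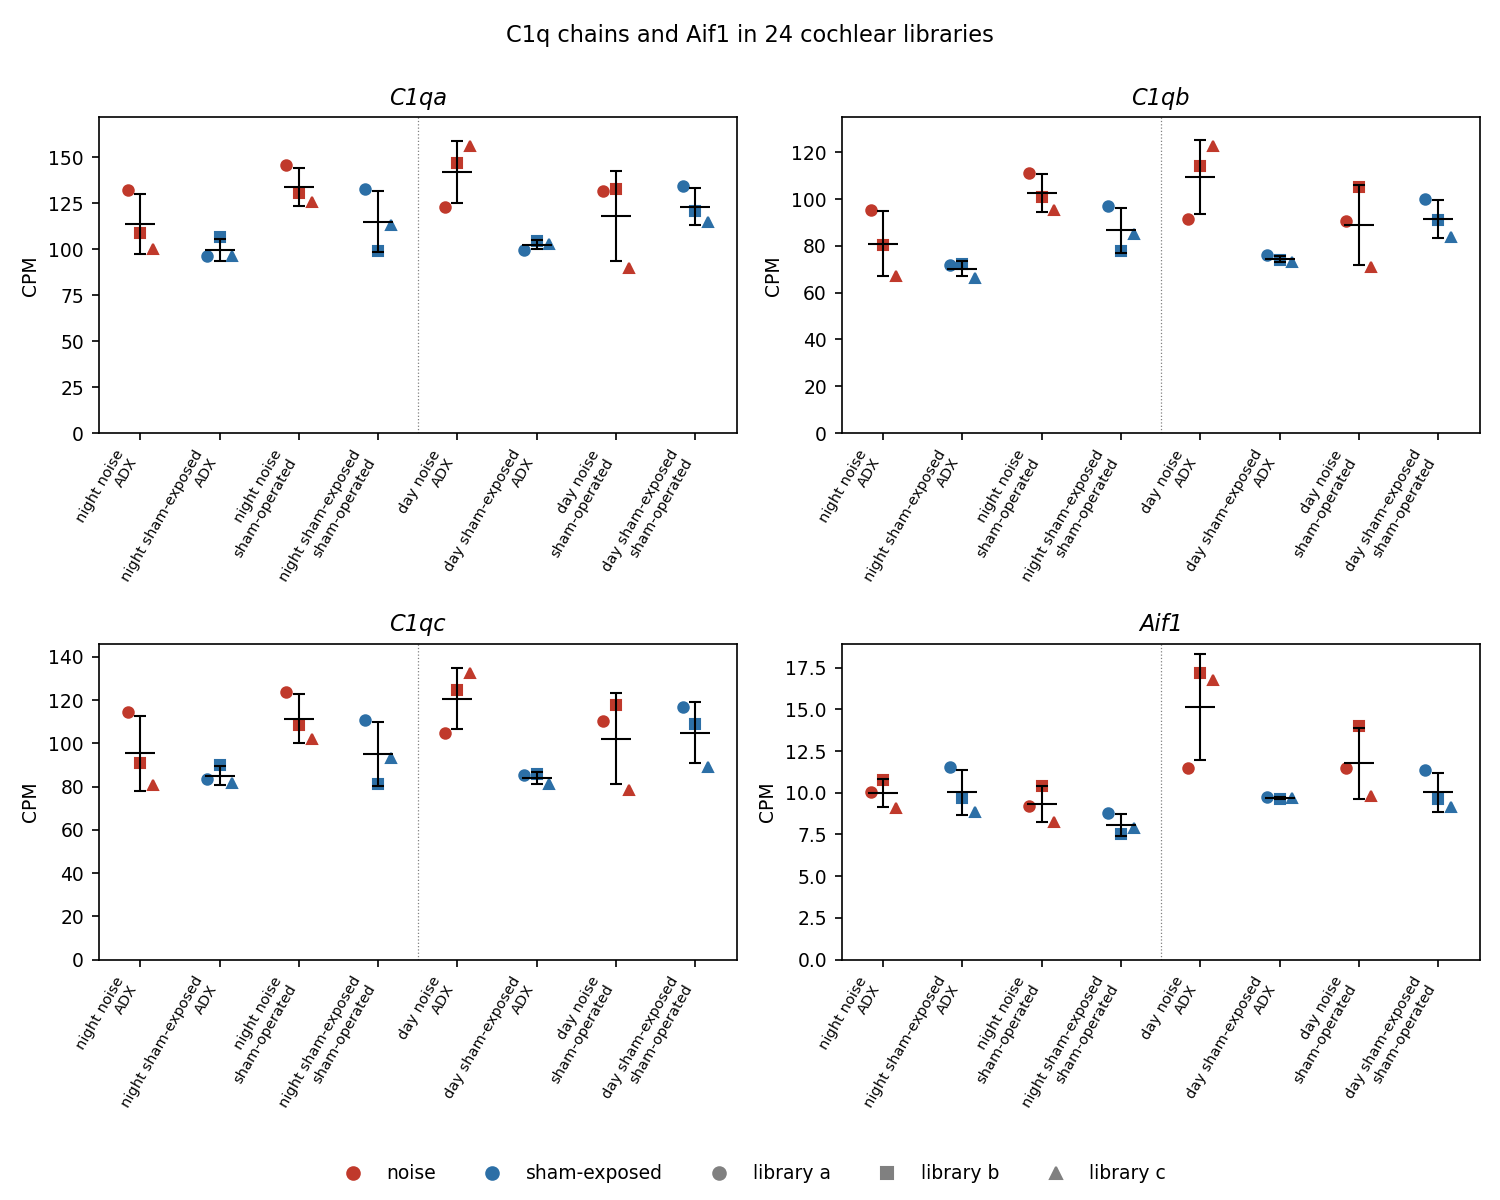
Levels of C1qa, C1qb, C1qc and Aif1 (CPM, y axis from 0) in each of 24 libraries, by group; symbols mark libraries a, b and c, black bars the mean ± SD of 3 libraries. In the day noise ADX group, libraries b and c stand above a in all 4 genes, and all 3 lie above the day sham-exposed ADX libraries.

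C1q and Aif1 were higher after noise by day in ADX mice. C1qa had 123, 147 and 156 CPM in the day noise ADX libraries a, b and c, against 99.7, 105 and 103 CPM in the day sham-exposed ADX libraries. C1qb had 91.7, 114 and 123 CPM with noise, against 76.0, 74.0 and 73.2 CPM without. C1qc had 105, 125 and 133 CPM with noise, against 85.3, 85.7 and 81.0 CPM without. In each chain the groups did not overlap, and library a of the noise group stood nearest to the sham-exposed level. Aif1, which rises in activated macrophages and microglia, had 11.5, 17.2 and 16.8 CPM with noise, against 9.75, 9.64 and 9.69 CPM without. Its sham-exposed libraries were within 0.0561 CPM of each other by SD, and library a was again the lowest of the noise group.

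By edgeR's quasi-likelihood test with Benjamini-Hochberg adjustment over 16607 genes, 4 of the 10 genes were higher after noise by day in ADX mice, where 2.01% of all genes were called higher. Aif1 rose by 0.65 on the log2 scale (SE 0.15, 1.57-fold, adjusted p = 0.0185), C1qb by 0.56 (SE 0.13, 1.47-fold, adjusted p = 0.0223), C1qa by 0.47 (SE 0.13, 1.39-fold, adjusted p = 0.0478) and C1qc by 0.52 (SE 0.15, 1.44-fold, adjusted p = 0.0494). The log2 differences of the other genes ran from 0.15 for Cx3cr1 to 0.58 for Cd163, all positive, and their adjusted p from 0.105 to 0.342. The median log2 difference over the 10 genes was 0.39, against -0.01 over all genes tested. In 9 of the 10 genes every noise library was above every sham-exposed library, with Csf1r the exception, against 12.2% of all genes.

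The 4 calls depended on single libraries, with the differences keeping their direction. Without library a of the noise group, 7 of the 10 genes were called higher, the other 3 being Csf1r, Cd68 and Mrc1. That fit called 2254 of all genes in either direction, against 667 with all 24 libraries. Leaving out library b or c of the noise group, or any one of the 3 day sham-exposed ADX libraries, gave no call among the 10. Over the 6 fits that left out 1 of these libraries, the log2 difference ran from 0.40 to 0.57 for C1qa, 0.47 to 0.68 for C1qb, 0.46 to 0.62 for C1qc and 0.54 to 0.81 for Aif1. Without a filter on low counts, C1qb and Aif1 alone were called, and without the 3 libraries with pituitary or cerebellar transcripts, C1qb, C1qc and Aif1. In a fit of those groups alone the 3 C1q chains passed and Aif1 did not, and limma called Csf1r besides the 4.

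Markers of other cell types also stood high in some of these libraries. Over the 12 neutrophil and granule genes the summed level ran from 7474 to 13537 CPM in day noise ADX libraries, against 6679 to 9078 CPM in day sham-exposed ADX libraries, and none of the 12 was called although all had a positive log2 difference. The 6 erythroid genes tested summed to 3709 to 4071 CPM with noise, against 2514 to 3125 CPM without, with none called and all positive. The 10 osteoclast genes summed to 588 to 922 CPM with noise, against 463 to 606 CPM without, and 2 of them were called higher, Acp5 (log2 change 0.80, adjusted p = 0.0430) and Calcr (1.91, adjusted p = 0.0430). The 6 MHC class II genes summed to 503, 968 and 1146 CPM in noise libraries a, b and c, against 602 to 709 CPM without, and the 6 classical monocyte genes to 739, 1060 and 965 CPM, against 738 to 858 CPM. Libraries b and c were above a in each of these lists, as in the C1q chains. The 8 T and NK lymphoid genes summed to 82.3 to 101 CPM with noise, against 70.5 to 89.2 CPM without, with none called, and the 10 B lymphoid genes were the other way round, at 683 to 799 CPM, against 821 to 993 CPM, with 1 called lower, Ebf1. No marker of the neutrophil, osteoclast, MHC class II or monocyte lists was at 0 in any of these 6 libraries; of the erythroid list, Hbb-b1 and Hba-a1 were. The part of these cell types in the result was not tested.

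**Figure D2:**
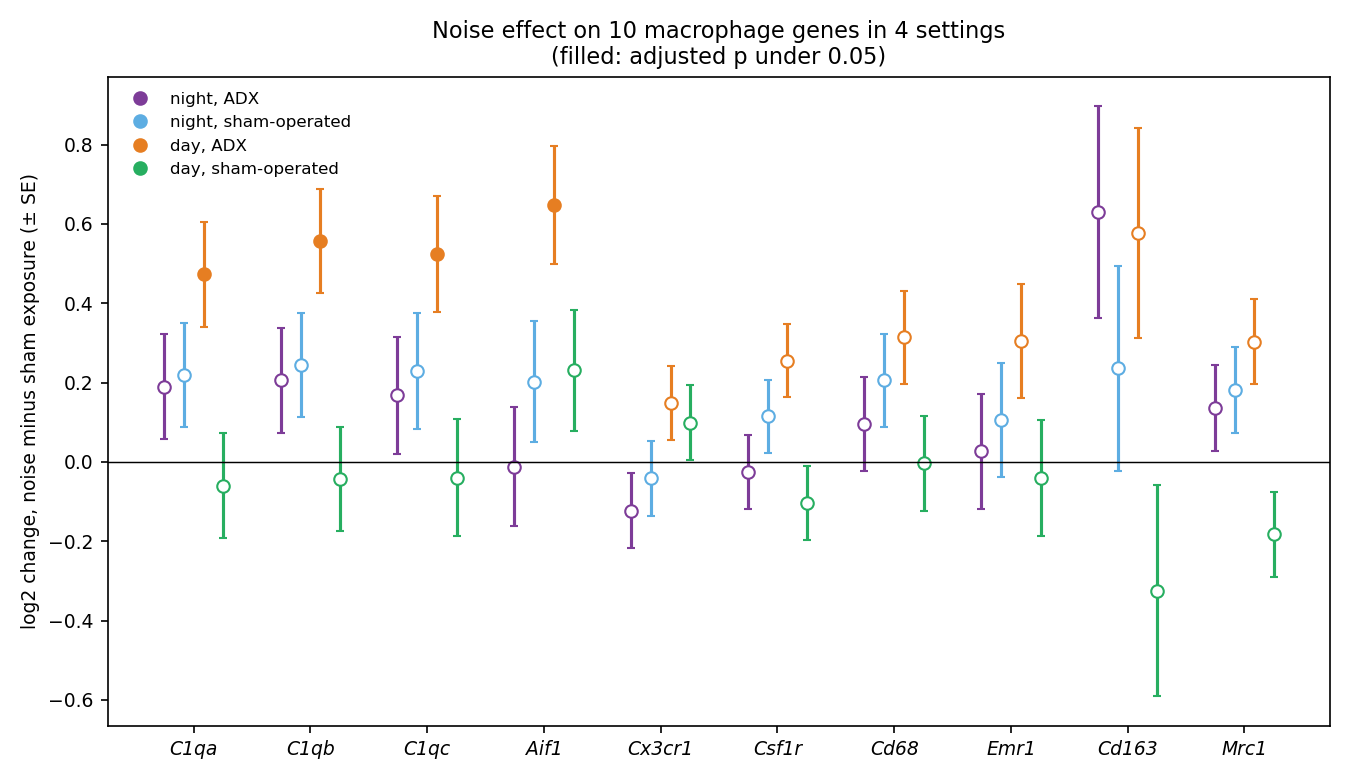
Log2 difference between noise and sham exposure (y axis, ± SE) for each of the 10 genes in 4 settings, filled where the adjusted p is under 0.05. In the day ADX setting the values run from 0.15 to 0.65 and 4 are filled; in the day sham-operated setting 8 of 10 are negative.

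In the other noise comparisons no macrophage gene was called by edgeR. After night noise in ADX mice the log2 differences ran from -0.12 to 0.63 with a median of 0.12, 7 of 10 were positive, and 1, Cd163, had an unadjusted p under 0.05, where 0.5% of all genes were called in either direction. After night noise in sham-operated mice, 9 of 10 were positive, with a median of 0.20 and values from -0.04 to 0.24, and none had an unadjusted p under 0.05, where 0.717% of all genes were called. After day noise in sham-operated mice, 8 of 10 were negative, with a median of -0.04 and values from -0.32 to 0.23, and again none had an unadjusted p under 0.05, where 0.247% of all genes were called. DESeq2 and limma also called none of the 10 in these 3 comparisons. Of the same chains, C1qb had 90.5, 105 and 71.0 CPM in the day noise sham-operated libraries a, b and c, against 99.9, 90.9 and 84.0 CPM in the day sham-exposed sham-operated libraries. Those groups overlapped, and library c of the noise group was the lowest of the 6.

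Whether the noise effect by day differed between ADX and sham-operated mice was tested as an interaction, in which edgeR called none of the 10 genes, and 0% of all genes. The differences of the log2 effect, ADX minus sham-operated, were positive for all 10, from 0.05 for Cx3cr1 to 0.90 for Cd163. Their adjusted p ran from 0.172 to 0.879, and 6 had an unadjusted p under 0.05. For C1qb the difference was 0.60 (SE 0.19) and for Mrc1 0.49 (SE 0.15). Without day noise ADX a, C1qb, Csf1r and Mrc1 passed. Over the fits of this interaction that left out 1 library, 0 to 811 of all genes were called. The interaction of noise and surgery at night called none of the 10 (0 with an unadjusted p under 0.05), nor did noise by time in ADX mice (2 with an unadjusted p under 0.05, and 0.00602% of all genes called) or in sham-operated mice (1). DESeq2 and limma called none of the 10 in these 4 interactions.

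Averaged over the 4 noise comparisons, C1qb (log2 change 0.24, SE 0.07, adjusted p = 0.0371) and Aif1 (0.27, SE 0.08, adjusted p = 0.0424) rose, where 2.4% of all genes were called higher. All 10 mean effects were positive, with a median of 0.18. C1qb had a lowest, median and highest level of 67.2, 95.4 and 123 CPM in 12 noise libraries, against 66.5, 76.9 and 99.9 CPM in 12 sham-exposed libraries. Aif1 had 8.26, 10.6 and 17.2 CPM with noise, against 7.53, 9.62 and 11.5 CPM without. The ranges overlapped in both. Neither gene was called without the 3 libraries with pituitary or cerebellar transcripts, and of the 24 fits that left out 1 library, 16 called none of the 10, day noise ADX b and c among those left out. DESeq2 called the 3 C1q chains and Aif1.

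**Figure D3:**
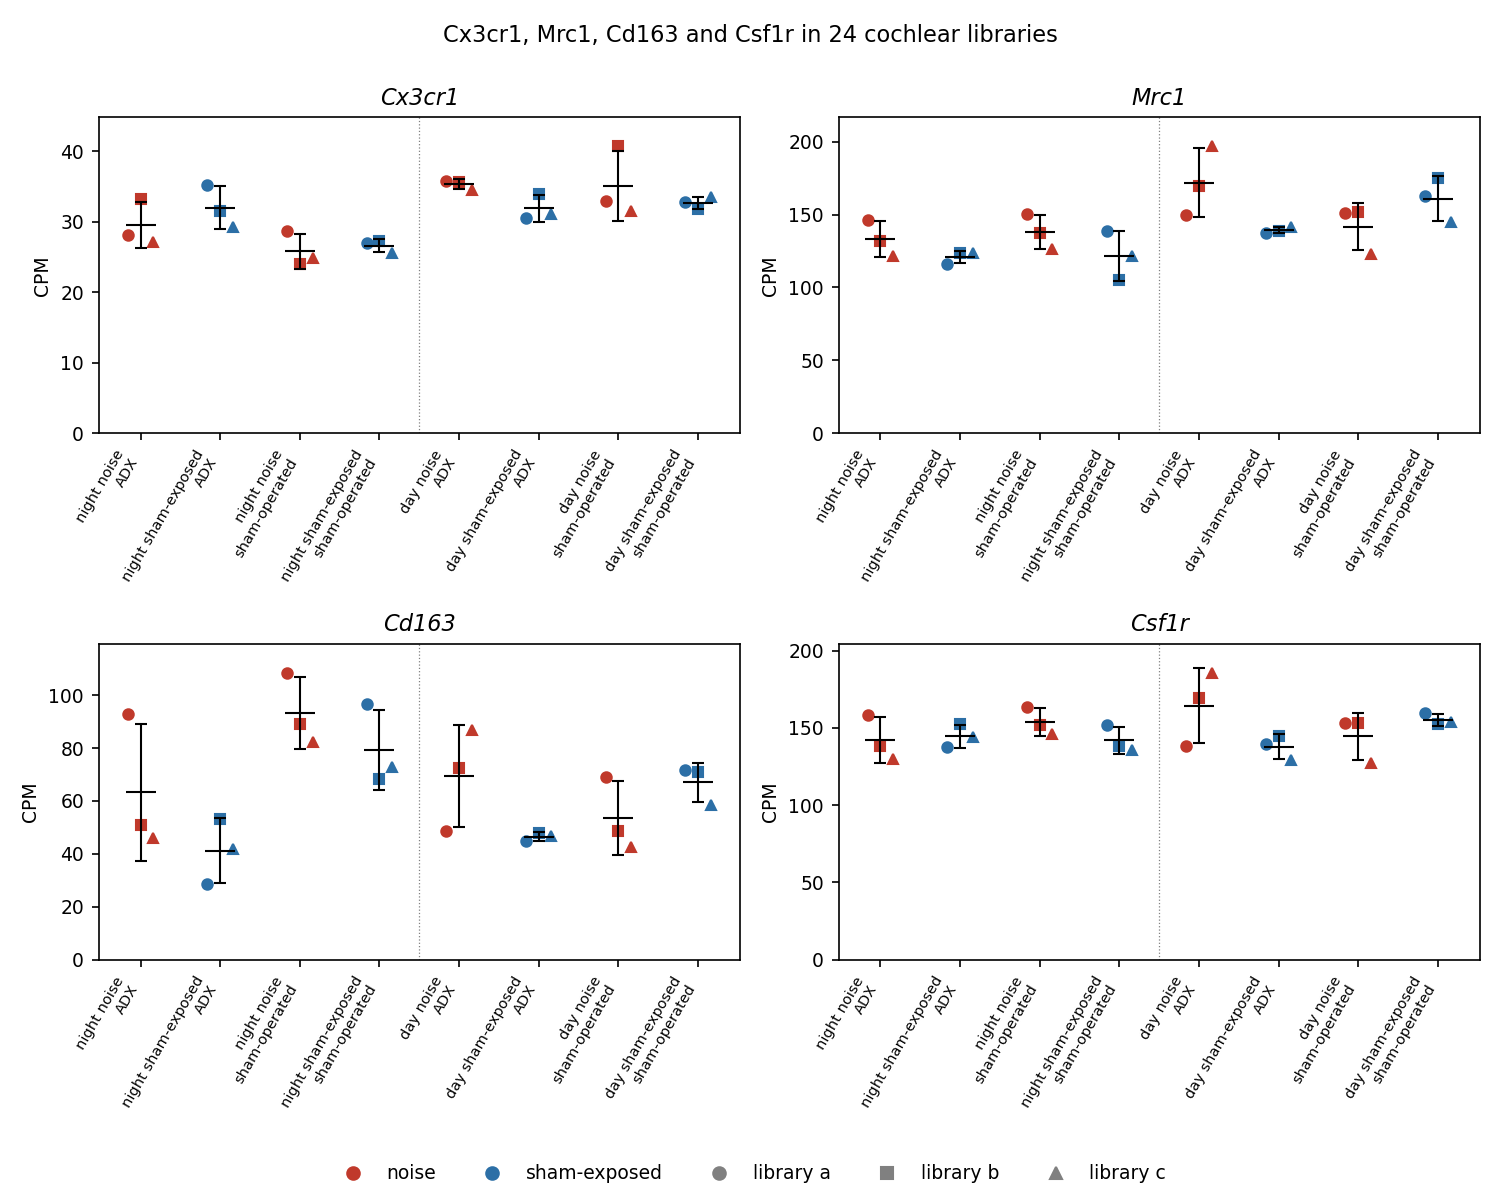
Levels of Cx3cr1, Mrc1, Cd163 and Csf1r (CPM, y axis from 0) in each of 24 libraries, by group, with the mean ± SD of 3 libraries. Cx3cr1 is lower in most night libraries, left of the dotted line, than in any day library. Mrc1 has a lower median at night, 125 CPM, against 150.3 CPM by day, with overlapping ranges. Cd163 spans 28.4 to 108 CPM while Csf1r stays between 127 and 186 CPM.

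Between night and day, 3 genes differed on average. Cx3cr1, the fractalkine receptor, had a lowest, median and highest level of 23.97, 27.7 and 35.2 CPM in 12 night libraries, against 30.5, 33.2 and 40.7 CPM in 12 day libraries. Mrc1 had 105, 125 and 150.2 CPM at night, against 123, 150.3 and 197 CPM by day. Aif1 had 7.53, 9.17 and 11.5 CPM at night, against 9.13, 10.6 and 17.2 CPM by day. The ranges overlapped in all 3, with the night median below the lowest day library in Cx3cr1. Averaged over the 4 settings, Cx3cr1 fell by 0.25 on the log2 scale at night (SE 0.05, 0.843-fold, adjusted p = 0.00296, edgeR), Mrc1 fell by 0.25 (SE 0.05, 0.839-fold, adjusted p = 0.00715) and Aif1 fell by 0.30 (SE 0.08, 0.812-fold, adjusted p = 0.0194), where 2.25% of all genes were called lower at night. These 3 and no other of the 10 passed in each of the 6 alternatives of this comparison and in all 24 fits that left out 1 library.

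The C1q chains and general macrophage genes did not pass between night and day. Csf1r had a mean log2 difference of -0.04 (SE 0.05, adjusted p = 0.635), Cd68 -0.09 (SE 0.06, adjusted p = 0.438), Emr1 -0.08 (SE 0.07, adjusted p = 0.588) and the C1q chains -0.07 to -0.10. Cd163 was the one gene with a positive value, 0.18 (SE 0.13, adjusted p = 0.464). Set against Csf1r in the same library, a ratio chosen after seeing the data, Mrc1 was 0.758 to 0.955 times as high in the 12 night libraries, with a median of 0.900, against 0.944 to 1.15 times in the 12 day libraries, with a median of 0.994. The Cx3cr1 ratio was 0.158 to 0.256 at night, with a median of 0.193, against 0.186 to 0.265 by day, with a median of 0.218. The median ratio of Aif1 was 0.0624 at night, against 0.0751 by day, and that of C1qa 0.811, against 0.818. For Cd163 it went the other way, with a median of 0.516 at night, against 0.372 by day. Night and day ranges overlapped in each.

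In single settings, 1 call was made between night and day. In noise-exposed sham-operated mice Cx3cr1 had 28.6, 23.97 and 24.8 CPM in the night libraries, against 32.9, 40.7 and 31.5 CPM in the day libraries. All night libraries were below all day libraries, and it fell by 0.44 on the log2 scale (SE 0.09, adjusted p = 0.0264), the 1 gene of 10 called, where 0.313% of all genes were called lower. That call was lost without day noise sham-operated a or b, without night noise sham-operated b or c, without the 3 libraries with pituitary or cerebellar transcripts (adjusted p = 0.119) and in a fit of those groups alone (adjusted p = 0.163). Among these noise-exposed sham-operated mice 6 of the 10 log2 differences were positive, with a median of 0.09 and values from -0.44 to 0.80. Of the 10, 3 had an unadjusted p under 0.05 in edgeR. Cd163 moved the other way from Cx3cr1, with 82.3 to 108 CPM at night, against 42.5 to 69.1 CPM by day, and did not pass. In sham-exposed sham-operated mice Mrc1 had 139, 105 and 121 CPM at night, against 163, 175 and 145 CPM by day, a log2 difference of -0.40 (SE 0.11) that did not pass (adjusted p = 0.130) in edgeR and passed in DESeq2, in limma and without night sham-exposed sham-operated a. In that setting edgeR called none of the 10, 2 had an unadjusted p under 0.05, and 0.265% of all genes were called. In 4 of the 10 genes, Aif1, Cx3cr1, Csf1r and Mrc1, all night libraries there were below all day libraries, against 7.07% of all genes.

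In noise-exposed ADX mice all 10 log2 differences between night and day were negative, from -0.13 for Cd163 to -0.61 for Aif1, with a median of -0.29. None passed in edgeR, 8 had an unadjusted p under 0.05, and 0.62% of all genes were called. Aif1 had 10.1, 10.8 and 9.11 CPM in night noise ADX libraries, against 11.5, 17.2 and 16.8 CPM in day noise ADX libraries, with no overlap (adjusted p = 0.0588). Cx3cr1 and Mrc1 did not overlap either, so that 3 of the 10 genes were lower in every night library, against 6.61% of all genes. DESeq2 called C1qb, Aif1 and Mrc1 there and limma none of the 10, and without day noise ADX a edgeR called C1qb, Aif1, Csf1r and Mrc1. Without night noise ADX a, edgeR called C1qb. Over the fits of this comparison that left out 1 library, 16 to 1313 of all genes were called. This comparison shares the day noise ADX libraries with the noise comparison by day. In sham-exposed ADX mice the differences ran from -0.20 for Mrc1 to 0.07 for Csf1r, with a median of -0.01; none was called by edgeR, DESeq2 or limma, none had an unadjusted p under 0.05, and 0.0181% of all genes were called by edgeR. In that setting the groups overlapped in Cx3cr1, with 35.2, 31.6 and 29.2 CPM at night, against 30.5, 34.0 and 31.1 CPM by day.

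Whether the night and day difference depended on surgery was tested after seeing these values. None of the 10 genes passed in edgeR among sham-exposed mice (1 with an unadjusted p under 0.05), among noise-exposed mice (7 with an unadjusted p under 0.05, lowest adjusted p = 0.234) or over both (3). For Cx3cr1 the time effect in ADX minus that in sham-operated mice was 0.30 on the log2 scale among sham-exposed mice (adjusted p = 0.748). Among noise-exposed mice this difference was negative for every gene but Cx3cr1 (0.17). It was -0.93 for Cd163 (adjusted p = 0.289) and -0.64 for C1qb (adjusted p = 0.234). Across all genes, 0.00602% were called among sham-exposed mice and 0% in the other pair of tests.

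**Figure D4:**
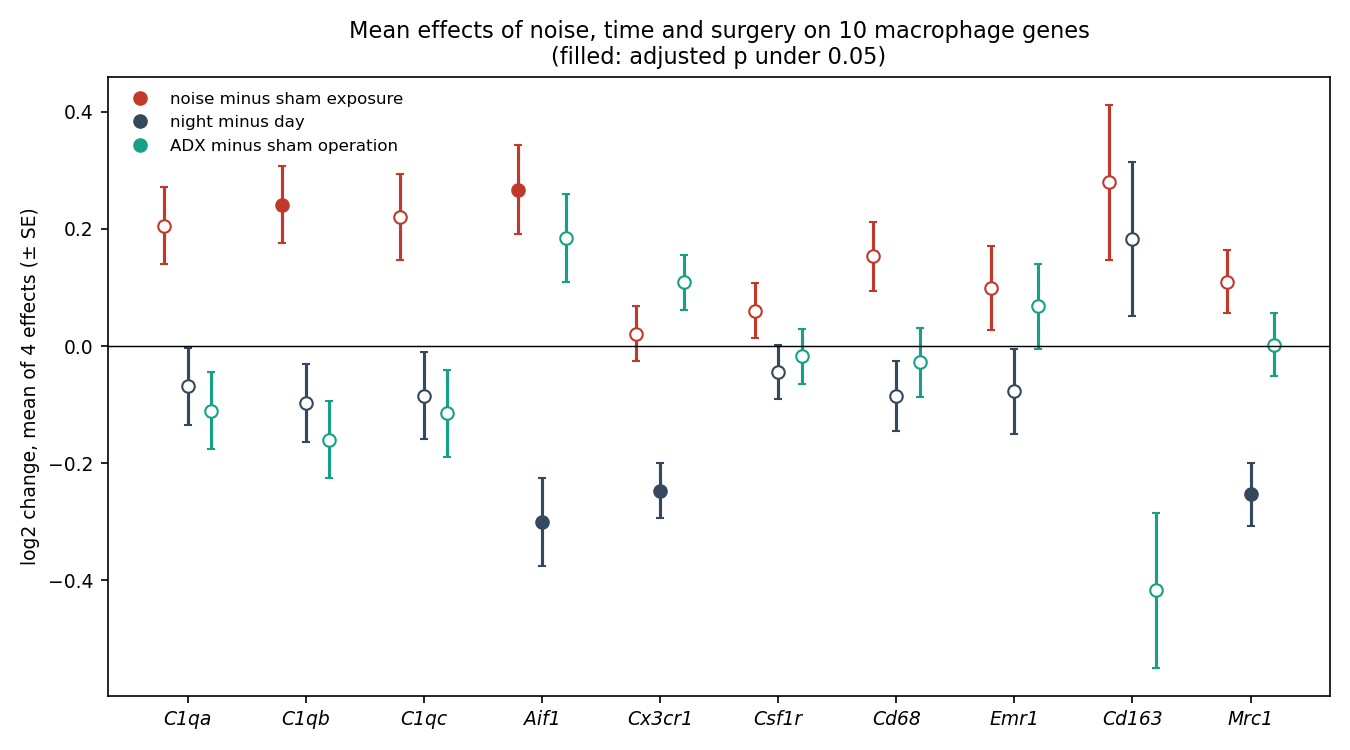
Mean log2 effect of noise, time and surgery on each of the 10 genes (y axis, ± SE), each averaged over 4 settings, filled where the adjusted p is under 0.05. C1qb and Aif1 are filled for noise, Aif1, Cx3cr1 and Mrc1 for night minus day, and none for surgery, where Cd163 lies lowest at -0.42.

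None of the 10 genes passed the threshold in edgeR between ADX and sham-operated mice, in any of the 4 settings or on average. Cd163 came nearest. It had 28.4, 53.0 and 42.0 CPM in the night sham-exposed ADX libraries, against 96.6, 68.3 and 72.8 CPM in the night sham-exposed sham-operated libraries. All ADX libraries were below all sham-operated libraries, with a log2 difference of -0.95 (SE 0.27, 0.517-fold, adjusted p = 0.0814). That difference passed in DESeq2 (adjusted p = 0.0315), in limma (adjusted p = 0.0171) and without the 3 libraries with pituitary or cerebellar transcripts (adjusted p = 0.0391). At that time 1.58% of all genes were called in either direction, and 4 of the 10 had an unadjusted p under 0.05. Cd163 and C1qb had every ADX library below every sham-operated one, against 10.9% of all genes, and Aif1 and Cx3cr1 had every ADX library above, against 11.4%.

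In the other settings Cd163 had 44.8, 48.0 and 46.7 CPM in day sham-exposed ADX libraries, against 71.7, 70.9 and 58.6 CPM in day sham-exposed sham-operated libraries, again without overlap (log2 difference -0.53, SE 0.27, adjusted p = 0.469), and it passed in a fit of those groups alone (adjusted p = 0.0293). After night noise it had 93.0, 50.7 and 46.1 CPM in ADX libraries, against 108, 89.2 and 82.3 CPM in sham-operated libraries (-0.56, SE 0.26, adjusted p = 0.582), with library a of the ADX group, the one with pituitary transcripts, inside the sham-operated range. Without that library the log2 difference was -0.95 (adjusted p = 0.0863), without all 3 libraries with pituitary or cerebellar transcripts it was -0.98 (adjusted p = 0.171), and without night noise ADX c it was -0.37 (adjusted p = 0.912). After day noise it had 48.6, 72.5 and 86.8 CPM in ADX libraries, against 69.1, 48.7 and 42.5 CPM in sham-operated libraries (0.37, SE 0.26, adjusted p = 0.554). That value was 0.58 without day noise ADX a and 0.61 without day noise sham-operated a, against 0.18 without day noise ADX c and 0.23 without day noise sham-operated c, and it passed in none of these. The mean effect was -0.42 (SE 0.13, adjusted p = 0.0948). It passed without the 3 libraries with pituitary or cerebellar transcripts (-0.51, adjusted p = 0.0303) and without night noise ADX a alone (-0.51, adjusted p = 0.0130). The 14 glucocorticoid-induced genes read in the same libraries summed to 609 to 720.3 CPM in night sham-exposed ADX libraries, against 1000 to 1181 CPM in night sham-exposed sham-operated libraries, and 6 of them were called lower, led by Fkbp5 (log2 change -1.48, adjusted p = 0.0267) and Tsc22d3 (-0.86, adjusted p = 0.0245).

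Among the other genes no difference with surgery passed. On average the log2 differences ran from -0.42 for Cd163 to 0.18 for Aif1, with a median of -0.02. Of the 10, 4 had an unadjusted p under 0.05, DESeq2 and limma called none, and 3.2% of all genes were called in either direction. The C1q chains had mean log2 differences of -0.11 to -0.16. Among day sham-exposed mice all 10 were negative, with a median of -0.19, and in 6 of the 10 every ADX library was below every sham-operated library, against 8.83% of all genes; 2 had an unadjusted p under 0.05, DESeq2 and limma called none, and edgeR called 0.0422% of all genes. After day noise all 10 were positive, with a median of 0.25, where 3 had an unadjusted p under 0.05 and edgeR and limma called no gene of all tested, and DESeq2 2, none of them among the 10. After night noise 7 of 10 were negative, with a median of -0.13, 2 had an unadjusted p under 0.05, no gene of all tested was called by edgeR, and DESeq2 and limma called none of the 10. Without day noise ADX a, Aif1 was called higher in ADX after day noise, where 760 of all genes were called in either direction.

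Ordered by group mean, day noise ADX was highest for 9 of the 10 genes and night noise sham-operated for Cd163. Most neighbours in these orders lay within the larger of their SDs: of 7 neighbouring pairs per gene, 2 were farther apart for C1qb and Aif1, 1 for C1qa, Csf1r, Emr1 and Mrc1, and none for C1qc, Cx3cr1, Cd68 and Cd163. Of single libraries, day noise ADX c held the highest level of 24 for 6 of the 10 genes and was among the 5 highest for all 10. Day noise ADX b was among the 5 highest for 9 and day noise sham-operated b for 8. At the low end, night noise ADX c and day noise sham-operated c were among the 5 lowest for 7 genes each.

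**Figure D5:**
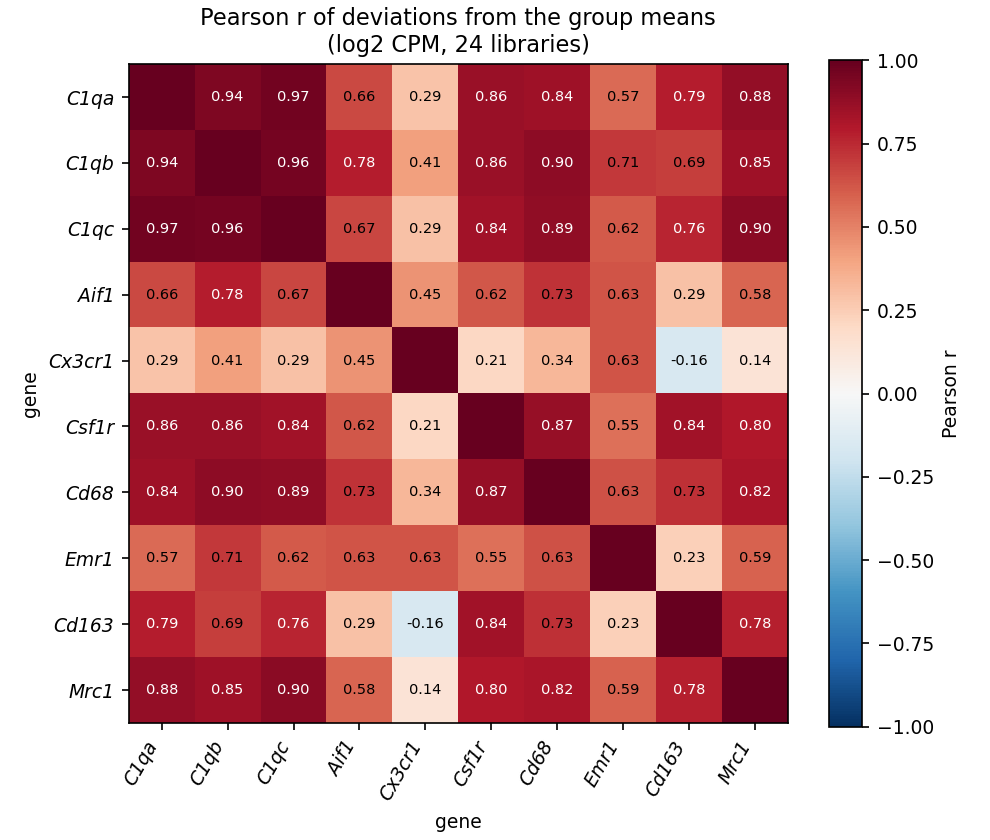
Pearson r between each pair of the 10 genes (both axes), over the deviations of log2 CPM from the group means in 24 libraries. The C1q chains lie between 0.94 and 0.97 with each other, and Cx3cr1 has the palest row, from -0.16 with Cd163 to 0.63 with Emr1.

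The C1q chains kept a near-constant proportion. The CPM of C1qb was 0.671 to 0.792 times that of C1qa over 24 libraries, and that of C1qc 0.779 to 0.901 times. Their pairwise Pearson r was 0.96 to 0.98 over libraries and 0.94 to 0.97 over deviations from the group means. Over all 45 pairs of the 10 genes the median r was 0.67 over libraries and 0.71 over deviations, values that share library composition and depth. Cx3cr1 had a median r of 0.21 with the other 9 genes over libraries, from -0.46 with Cd163 to 0.52 with Emr1 and 0.69 with Aif1. Within groups its median r was 0.29 and its highest 0.63, with Emr1.

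The 8 genes most like the mean of the 10 were taken by the highest Pearson r of log2 CPM over 24 libraries among the 15147 genes whose mean log2 CPM was 0 or more. They were Siglec1 (r = 0.94), the sialic acid-binding receptor of macrophages, Fcna (0.93), a ficolin of the lectin complement pathway, Axl (0.92), a receptor for the uptake of dying cells, Ctsb (0.90), a lysosomal protease, Eif4ebp1 (0.89), an inhibitor of translation, Cfp (0.87), which encodes properdin of the alternative complement pathway, Coro1c (0.87), an actin-binding protein, and Mpeg1 (0.87), a pore-forming protein of macrophages. Over deviations from the group means, Hexa (0.92), Prkcq (0.91), Siglec1 (0.90), Il27ra (0.89), Gimap3 (0.89), Axl (0.89), Vcam1 (0.89) and Cfp (0.89) led. Siglec1, Axl and Cfp were in both lists.

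Of the other complement genes read, 1 was called higher after day noise in ADX mice, where 2.01% of all genes were called higher. It was not among those of the classical pathway. None of the 6 genes of the C1 proteases and the classical pathway passed after day noise in ADX mice, 2 of 6 being positive, with a median log2 difference of -0.05. The most abundant, C3 and Serping1, the inhibitor of C1r and C1s, averaged 235 and 225 CPM over 24 libraries. Of 10 other activators and fluid-phase regulators, 1 was called there, Cfp, with 81.1 ± 11 CPM in day noise ADX, against 60.7 ± 2.36 CPM in day sham-exposed ADX (SD, n = 3 each, log2 change 0.42, adjusted p = 0.0431). Of 12 complement receptors and membrane regulators none passed, with a median of 0.08. On average over the surgery comparisons, C1s rose by 0.17 (adjusted p = 0.0360), with a median of 23.2 CPM in 12 ADX libraries, against 20.4 CPM in 12 sham-operated libraries. It was the 1 call of the 6 genes of its list, where 3.2% of all genes were called in either direction. Cd93, of the complement receptors, was also called higher with ADX, and its values are given at the end.

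Of the ligands and recruitment genes, chemokines were called. Ccl2 and Ccl7, which recruit monocytes, were the 2 called of 9 ligand and recruitment genes in each of the 4 noise comparisons. Of all genes, 2.01% were called higher by day in ADX mice, and 0.247% to 0.717% in either direction in the other comparisons. In day noise ADX, Ccl2 had 4.04 ± 1.41 CPM, against 0.877 ± 0.185 CPM in day sham-exposed ADX (SD, n = 3 each, log2 change 2.21, adjusted p = 0.000925), and Ccl7 had 3.49 ± 0.558 CPM, against 0.289 ± 0.148 CPM (3.58, adjusted p = 0.000104). On average, 4 of the 9 rose with noise, Ccl12 (0.98, adjusted p = 0.00982) and Csf1 (0.15, adjusted p = 0.0471), the ligand of Csf1r, besides Ccl2 and Ccl7. Of all genes, 2.4% were called higher on average. Il34, the other ligand of Csf1r, had a median of 33.0 CPM in 12 night libraries, against 22.1 CPM in 12 day libraries, and rose at night on average by 0.43 (adjusted p = 0.000984). Among night sham-exposed mice Il34 was 22.8 ± 3.84 CPM in ADX libraries, against 34.9 ± 3.19 CPM in sham-operated libraries (log2 change -0.62, adjusted p = 0.0312). Cx3cl1, the ligand of Cx3cr1, passed in none of the average effects of noise, time and surgery.

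Of 22 further macrophage core genes, 1 rose and 1 fell after day noise in ADX mice, where 2.01% of all genes were called in each direction. Of the 22, 19 were positive, with a median log2 difference of 0.22. Fcer1g, an adaptor of Fc receptors, had 61.9 ± 17.2 CPM in day noise ADX, against 41.0 ± 1.68 CPM in day sham-exposed ADX (SD, n = 3 each, 0.60, adjusted p = 0.0324). Maf, a transcription factor of macrophages that other cells also use, had 77.9 ± 12.4 CPM, against 100.8 ± 3.36 CPM (-0.37, adjusted p = 0.0126). At night, Trem2, a lipid receptor of microglia and macrophages, fell on average by 0.34 (adjusted p = 0.0325), with a median of 5.84 CPM, against 7.65 CPM by day, the 1 call of the 22, where 2.25% of all genes were called lower. With ADX, Mertk, a receptor for dying cells, fell on average by 0.24 (adjusted p = 0.0169), with a median of 53.8 CPM, against 66.6 CPM with sham operation, the 1 call of the 22, where 3.2% of all genes were called in either direction.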

How the data were processed

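Raw counts of reads per gene symbol were deposited for 24 libraries of whole mouse cochlea in 8 groups of 3, without normalisation by the authors. Per the labels, libraries were made with a stranded mRNA kit from 300 ng of total RNA and read as 50 bases from one end. TopHat2 2.0.11 and HTSeq 0.6p1 are credited in the submitters' processing notes, with mm10 as the build. The gene annotation, the strand setting of the counting and the assignment of libraries to sequencing pools are not given in the sources used here. Of 23420 entries, 3340 had no count and 27 bore dates in place of names, with 0.214% of the counts. Positions and exon lengths came from GENCODE vM21 by symbol, which matched 21714 entries to 1 gene.

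In R 4.3.3, edgeR 4.0.16 filtered genes with filterByExpr on the 8 groups, which left 16607, scaled libraries by TMM (factors 0.974 to 1.02) and fitted 1 mean per group to all 24 libraries with a robust quasi-likelihood model. Two-sided F-tests of 19 contrasts had their p-values adjusted across the 16607 genes by Benjamini-Hochberg, and 0.05 was the threshold; SEs follow from the log2 change and F. Average effects are means of 4 pairwise contrasts. Log2 CPM values used a prior count of 2. Alternatives were RLE scaling, DESeq2 1.42.0, limma 3.58.1 with voom and library weights, no filter, the library letters as a block, the fit without 3 libraries, the fit of the compared groups alone, and leaving out each library. No library repeated another: over genes whose counts in a pair summed to 20 or more, the chi-square per gene was 6.1 to 41.4 in the 24 pairs within groups. The labels do not say whether letters a, b and c pair libraries. For day noise against sham exposure in sham-operated mice, deviations from the group means correlated by 0.195 to 0.289 between libraries of one letter. In every other comparison at least 1 letter had a lower r. For night noise in sham-operated mice r was 0.410 for letter a, 0.0398 for b and 0.239 for c.

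The 10 genes and all gene lists were chosen with earlier results of these data known. All 10 are described in every comparison. Of the lists, up to 4 genes past the threshold with the smallest adjusted p in a comparison were eligible to be named, or the 2 with the highest mean CPM where none passed. Other genes named were chosen after their values were seen. One gene of the complement lists is not reported here.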

Additional observations from a re-analysis of the deposited data

How the results depend on the processing

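The counts of macrophage genes called in each comparison kept within 1.5 times under most settings. After day noise in ADX mice the count of 4 became 2 with no filter on low counts. Between night and day, DESeq2 gave 3 in noise-exposed ADX mice, where edgeR gave 0; in noise-exposed sham-operated mice the count of 1 became 0 without the 3 libraries with pituitary or cerebellar transcripts and 0 in a fit of those groups alone; and DESeq2 and limma gave 1 each in sham-exposed sham-operated mice. For surgery, the count of 0 became 1 by day in sham-exposed mice in a fit of those groups alone, 1 at night in sham-exposed mice by DESeq2, by limma and without the 3 libraries, and 1 on average without the 3 libraries, each time Cd163. For the average noise effect, 2 became 4 with DESeq2 and 0 without the 3 libraries. Leaving out 1 library at a time gave 0 to 7 calls for day noise in ADX mice, 0 to 4 for night against day in noise-exposed ADX mice, 0 to 1 in noise-exposed and in sham-exposed sham-operated mice, 0 to 1 for surgery after day noise, 0 to 4 for the average noise effect, 0 to 1 for the average surgery effect and 0 to 3 for noise by surgery by day. The 3 calls of the average time effect were kept in all of these fits. No value changed its direction among those called. With the library letters as a replicate block, the counts were 4 for day noise in ADX mice, 2 for the average noise effect, 3 for the average time effect, 1 for time in noise-exposed sham-operated mice and 0 elsewhere, so no call of the 10 genes changed; 16 of 24 libraries resembled a library of the same letter in another group most. Counts over all genes moved more: from 667 to between 410 and 1405 for day noise in ADX mice across the settings, and to 2254 without day noise ADX a; from 41 to between 30 and 123, from 83 to between 44 and 182, and from 119 to between 82 and 254 for noise in day sham-operated, night ADX and night sham-operated mice; from 103 to between 0 and 433, 186 to between 31 and 494, 3 to between 2 and 38, and 44 to between 13 and 410 for time in noise-exposed ADX, noise-exposed sham-operated, sham-exposed ADX and sham-exposed sham-operated mice; and from 7 to between 6 and 179 by day and 263 to between 216 and 1242 at night for surgery in sham-exposed mice. For noise by surgery by day, 0 calls became 158 with DESeq2 and 264 with limma. The cause of these changes was not tested. Fits that leave libraries out also rest on fewer libraries. With 3 libraries a group, a p that misses the threshold does not show that the groups were alike.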

Other observations

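After day noise in ADX mice none of 12 genes of resident and perivascular macrophages passed, and 10 were positive, with a median log2 difference of 0.25. At night, Timd4, a phosphatidylserine receptor of long-lived resident macrophages, fell on average by 0.53 (adjusted p = 0.00112, edgeR), with a lowest, median and highest level of 5.30, 8.18 and 9.23 CPM in 12 night libraries, against 8.99, 10.3 and 15.6 CPM in 12 day libraries. Lyve1, a hyaluronan receptor of lymphatic vessels and of perivascular macrophages, rose on average by 0.38 (adjusted p = 0.0230), with a median of 5.98 CPM at night, against 4.88 CPM by day. Its highest level was 10.1 CPM at night and 5.99 CPM by day, and no ADX library was above 6.19 CPM. Calr, calreticulin, a chaperone that also binds C1q at the cell surface, was at 861 to 1032 CPM in the 12 night libraries, against 700.0 to 847 CPM in the 12 day libraries, with no overlap.

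Of 10 B lymphoid genes, 9 rose with ADX on average, where 3.2% of all genes were called in either direction, led by Rag1 (log2 change 0.60, adjusted p = 0.00336), Vpreb3 (0.47, adjusted p = 0.00349) and Pax5 (0.45, adjusted p = 0.00361). Of 12 neutrophil and granule genes none passed, with 1 positive and a median of -0.06. Cd93, a receptor of endothelial and myeloid cells, rose with ADX on average by 0.27 (adjusted p = 0.0230), with a median of 149 CPM in 12 ADX libraries, against 121 CPM in 12 sham-operated libraries.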
